A study of Mus musculus with 80 samples.

Results

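The comparison was of 2 times of day in AgRP neurons of floxed control mice, over all 13 libraries of genotype WT;BMAL1fx that were collected at ZT2 (7 libraries) or ZT14 (6 libraries), of 80 libraries in the series. ZT is zeitgeber time in hours, by convention counted from lights on, so that ZT2 fell early in the light phase and ZT14 early in the dark phase. At ZT2, 4 libraries followed PBS, the vehicle control, and 3 followed leptin, the hormone of fat tissue that curbs feeding. At ZT14, 3 followed each. All 13 were labelled as carrying the floxed Bmal1 allele (gene symbol Arntl) without AGRP-Cre, so Arntl should be intact. Leptin dose, the interval after injection, feeding state, age and sex are not given in the sources used here. The extraction protocol describes GFP sorting of dissociated arcuate slices from NPY-GFP mice, and immunoprecipitation for RiboTag samples. The floxed libraries are not labelled RiboTag, and their labels name no GFP allele. Their column headers group them as NPY leptin samples, apart from the RiboTag samples, without naming the isolation. All 13 are labelled as AgRP-positive neurons of the arcuate hypothalamus. Also used were 12 libraries of AGRP-Cre;BMAL1fx mice (6 at each time, 3 per treatment), in which Cre acts in AgRP-expressing cells, and 9 libraries of sorted NPY-GFP cells from ad libitum fed mice (6 at ZT2, 3 at ZT14). The labels number the libraries as collections but do not say that each came from a separate mouse, and p-values here reflect library-to-library variation that could be purely technical.

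AgRP neurons drive feeding, and mice, being nocturnal, eat mostly in the dark phase. The circadian clock of mammalian cells is a feedback loop of transcription: BMAL1 (Arntl) pairs with CLOCK or NPAS2 on E-box sequences and switches on the Per, Cry, Ciart, Dec (Bhlhe40, Bhlhe41) and REV-ERB (Nr1d1, Nr1d2) genes, whose products repress the loop. REV-ERBs and the activating ROR receptors compete on RORE sequences, among others in Arntl, and the PAR bZIP factors DBP, TEF and HLF and their antagonist NFIL3 act on D-box sequences. In many mouse tissues Arntl RNA is therefore high when Per and REV-ERB RNA is low.

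Values are the authors' normalised counts, that is reads per gene divided by a size factor per library, and differences are ZT14 minus ZT2 on log2(value + 1), with leptin as a term, ± standard error. They were fitted with limma over 13476 genes, adjusted by Benjamini-Hochberg, and "called" means an adjusted p under 0.05. On this scale the differences of weakly expressed genes are understated. Depth moved with time of day, and its part in the results was tested only by thinning. It was 10.9 to 34.0 M reads (M stands for mega) and 14893 to 16310 genes above 0 at ZT2, against 5.93 to 16.5 M reads and 14445 to 15062 genes at ZT14. With all libraries thinned to 5.93 M reads, 12 genes were called in place of 11, 9 of them in common. Without PBS ZT2 replicate 2, a library described below, thinning gave 78 calls (34 higher, 44 lower at ZT14) in place of 104.

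One library went against its label in the clock genes. In the library labelled PBS ZT2 replicate 2, Ciart was 364.1, against 1.65 to 15.2 in the other 6 ZT2 libraries and 432.5 to 729.4 at ZT14. Nr1d2 was 1208, against 61.5 to 127.6 and 789.1 to 1285. On log2(value + 1), its distance to the mean of the ZT14 libraries was set beside that to the mean of the other ZT2 libraries. Of 9 clock genes called without that library, it was nearer the ZT14 mean in 9, and of the 95 other genes called without it, nearer in 79. The other 12 libraries were nearer the other time in 0 or 1 of the 9 and in 2 to 10 of the 95, though these 12 served to choose the genes. The 4 genes called lower at ZT14 in 13 libraries lay on the other side in it, but calling them with that library counted at ZT2 favours such genes. There Stac (33.8), Ptpre (198.9), Scd3 (102.6) and Ppef1 (329.2) were each above every ZT14 library. The library was neither moved nor relabelled, and differences in floxed controls are given with it (13 libraries) and without it (12 libraries, 6 at each time, 13405 genes tested, an alternative added once the data had been seen).

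Over all genes, 7 were called higher at ZT14 (0.0519% of those tested) and 4 lower (0.0297%). Without that library 45 were called higher (0.336%) and 59 lower (0.44%), all 11 of the first set among them. The edgeR quasi-likelihood test on recovered reads called 0 of the same genes (1146 at an unadjusted p under 0.05, lowest adjusted p 0.0595), DESeq2 called 192, and leaving out any of 10 of the 13 libraries also gave 0 limma calls (the others, leptin ZT14 replicate 1, leptin ZT2 replicate 1 and PBS ZT2 replicate 2, gave 10, 6 and 104). Without PBS ZT2 replicate 2, edgeR called 102 and DESeq2 413, and leaving out each further library left between 35 and 119 limma calls. Of those 104 genes, 30 were called in each of these 12 fits, and Ciart, Nr1d2, Per3, Tef, Per1, Per2, Nr1d1 and Arntl were among them.

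Promoters of 5 clock genes are shown: those of the 4 called in 13 libraries (Ciart, Nr1d2, Per3, Tef), and that of Arntl, which differed in the opposite direction. The Nr1d2 window held none of the 3 motifs. Sequences are from RefSeq, build GRCm38.p6, 250 bases before to 50 after the annotated start, 5′ to 3′ on the gene's strand, and capitals mark motif matches: CACGTG (E-box), TTATGTAA or TTACGTAA (D-box) and TAGGTCA (RORE), each searched on both strands. No matches overlapped in these windows.
Ciart, chr3:95882179-95882478, minus strand, 3 E-boxes: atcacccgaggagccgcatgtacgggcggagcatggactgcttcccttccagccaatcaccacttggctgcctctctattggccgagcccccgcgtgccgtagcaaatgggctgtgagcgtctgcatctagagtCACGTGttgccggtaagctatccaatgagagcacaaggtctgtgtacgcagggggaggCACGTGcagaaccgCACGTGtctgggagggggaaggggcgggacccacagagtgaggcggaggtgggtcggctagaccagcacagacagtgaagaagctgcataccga
Nr1d2, chr14:18239057-18239356, minus strand, no match: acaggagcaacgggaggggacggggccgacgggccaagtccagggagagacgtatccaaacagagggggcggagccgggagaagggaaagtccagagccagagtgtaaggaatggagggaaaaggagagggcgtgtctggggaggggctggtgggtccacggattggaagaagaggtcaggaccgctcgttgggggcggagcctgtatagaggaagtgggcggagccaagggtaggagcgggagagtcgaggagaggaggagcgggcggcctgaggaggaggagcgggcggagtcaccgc
Per3, chr4:151044616-151044915, minus strand, 2 D-boxes: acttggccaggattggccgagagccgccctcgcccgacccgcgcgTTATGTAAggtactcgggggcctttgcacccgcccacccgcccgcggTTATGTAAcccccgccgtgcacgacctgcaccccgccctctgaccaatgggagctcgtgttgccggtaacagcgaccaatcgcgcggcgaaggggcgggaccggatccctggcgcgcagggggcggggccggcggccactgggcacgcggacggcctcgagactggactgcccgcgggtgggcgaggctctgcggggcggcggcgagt
Tef, chr15:81802423-81802722, plus strand, 1 E-box: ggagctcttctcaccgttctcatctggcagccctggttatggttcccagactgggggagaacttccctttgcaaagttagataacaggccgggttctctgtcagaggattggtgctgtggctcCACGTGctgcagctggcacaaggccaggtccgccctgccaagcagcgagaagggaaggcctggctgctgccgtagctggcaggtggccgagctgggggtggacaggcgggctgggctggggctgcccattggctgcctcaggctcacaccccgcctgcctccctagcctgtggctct
Arntl, chr7:113207261-113207560, plus strand, 1 RORE: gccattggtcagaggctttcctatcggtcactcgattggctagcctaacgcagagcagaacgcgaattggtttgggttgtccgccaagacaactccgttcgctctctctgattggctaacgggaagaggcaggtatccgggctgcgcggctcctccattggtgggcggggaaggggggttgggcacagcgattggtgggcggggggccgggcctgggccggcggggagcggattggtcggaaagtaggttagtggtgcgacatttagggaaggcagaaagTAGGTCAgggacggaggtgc
Of 20 clock genes, 17 had a promoter in the RefSeq table. At least 1 window held an E-box in 5 of them, a D-box in 1 and a RORE in 2, and among all 32851 promoter windows the shares were 7.15%, 1.06% and 2.61%. These shares count single windows, whereas a gene with more than 1 window had more chances of a match. The E-box genes were Ciart, Tef, Per1, Cry1 and Bhlhe41, of which Cry1 and Bhlhe41 were not called with or without PBS ZT2 replicate 2. A second Arntl window, chr7:113207215-113207514, overlaps most of the one shown but ends before its RORE, and held none of the motifs. A second Tef window, chr15:81811164-81811463, held 1 E-box. A match describes these letters only.

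Among the repressors of the loop, Ciart, which encodes the BMAL1-binding repressor CHRONO (chromosome 3, 95878500 to 95882257), differed most. Its ZT2 libraries lay at 1.65, 6.15 (median) and 364.1 (the library that stands apart), and its ZT14 libraries at 432.5, 655.8 and 729.4. The groups did not overlap even with that library. Ciart was higher at ZT14 by 5.73 ± 0.835 (53.0-fold, adjusted p = 0.0362), and by 6.53 ± 0.375 (92.2-fold, adjusted p = 5.25e-07) without it. Its promoter, above, holds 3 E-boxes within 116 bases of the start.

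Per3 (chromosome 4, 150997018 to 151044707), a period gene, was 41.2, 70.9 and 274.8 at ZT2 (lowest, median, highest) and 267.2, 463.8 and 673.5 at ZT14. Only the library labelled PBS ZT2 replicate 2 reached into the ZT14 range. The difference was 2.40 ± 0.388 (5.27-fold, adjusted p = 0.0362), and 2.67 ± 0.304 (adjusted p = 0.000761) without it. Per1 (chromosome 11, 69095108 to 69109965), the period gene that also responds to light, activity and glucocorticoids, was 96.8 to 126.1 in 6 ZT2 libraries, 591.7 in the other and 194.6 to 544.8 at ZT14. That 1 value exceeded all 6 ZT14 libraries. Per1 was not called in 13 libraries (1.34 ± 0.381, adjusted p = 0.232) and rose by 1.66 ± 0.243 (3.17-fold, adjusted p = 0.0061) without it.

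Per2 (chromosome 1, 91415977 to 91459351) ran from 77.2 to 216.4 in 6 ZT2 libraries, stood at 448.1 in the other, and ran from 290.3 to 625.9 at ZT14. It was not called in 13 libraries (1.39 ± 0.339, adjusted p = 0.159) and rose by 1.62 ± 0.278 (adjusted p = 0.0155) in 12. Cry2, a cryptochrome, was 265.8 to 457.9, 678.9 and 560.3 to 824.4 in the same order. Its difference was 0.72 ± 0.205 (adjusted p = 0.223) in 13 libraries and 0.85 ± 0.179 (adjusted p = 0.0425) in 12, a call that held in 1 of the 12 fits with a further library left out. The other cryptochrome gene, Cry1, was 72.8, 175.9 and 281.7 at ZT2 and 129.2, 154.9 and 229.6 at ZT14, with overlapping groups and a difference of -0.04 ± 0.273 (adjusted p = 0.991), or -0.23 ± 0.219 (adjusted p = 0.777) in 12. Its lowest value was that of PBS ZT2 replicate 2.

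The DEC repressors overlapped fully between times. Bhlhe40 had a ZT2 median of 587.6 and a ZT14 median of 1003, but leptin ZT2 replicate 3 was at 2709, above all ZT14 libraries (0.51 ± 0.249, adjusted p = 0.601, and 0.48 ± 0.264 in 12). Bhlhe41 lay between 2.40 and 37.6 at ZT2 and between 7.25 and 33.2 at ZT14 (0.06 ± 0.485, and 0.14 ± 0.510 in 12). In all, 2 of 8 repressor genes were called higher in 13 libraries and 5 of 8 in 12, against 0.0519% and 0.336% of all genes, and the median difference of the 8 was 1.033 and 1.234, against -0.023 and -0.021 over all genes.

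**Figure D1:**
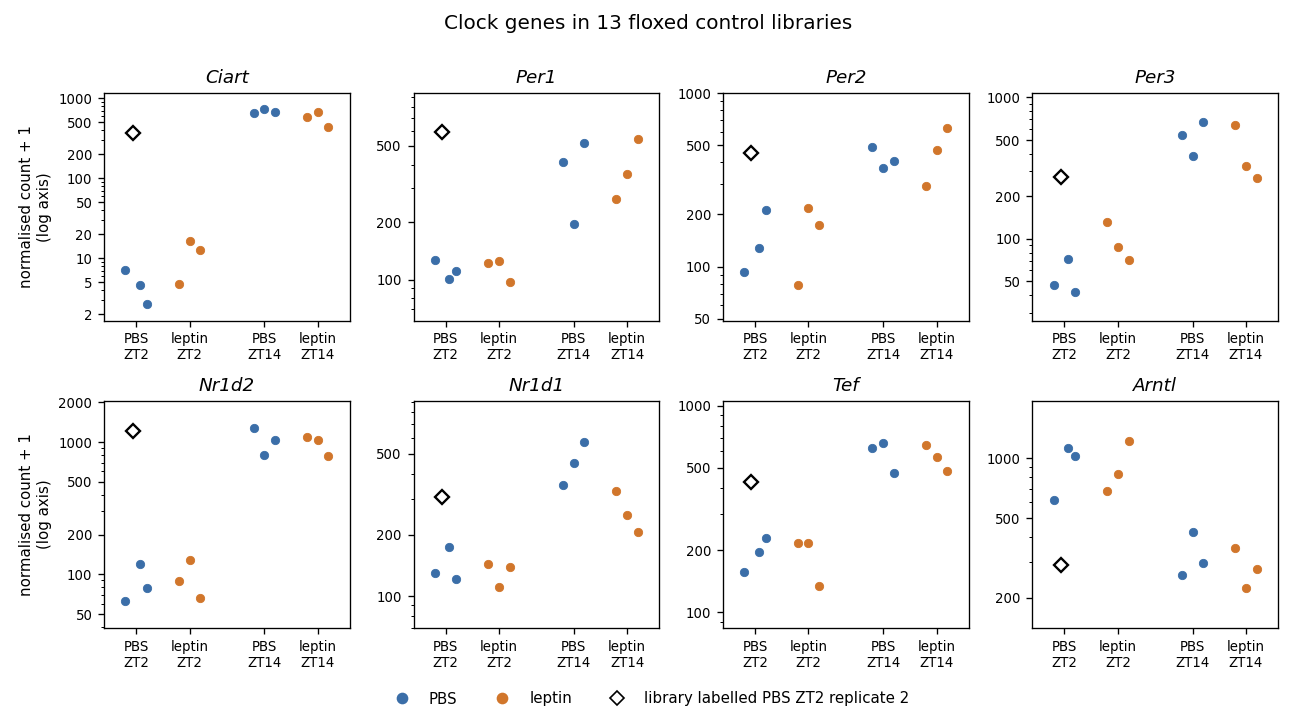
Normalised count + 1 (log axis, y) of 8 clock genes in each of the 13 floxed control libraries, by treatment and time (x); each point is 1 library and the open diamond is the library labelled PBS ZT2 replicate 2. In all 8 panels the diamond lies nearer the ZT14 libraries; for Ciart it is at 364.1, against at most 15.2 in the other ZT2 libraries and at least 432.5 at ZT14.

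Of the nuclear receptors, Nr1d2 (chromosome 14, 18204056 to 18239106), which encodes REV-ERB beta, was 61.5, 88.6 and 1208 at ZT2 and 789.1, 1034 and 1285 at ZT14. The ZT2 library at 1208 was again PBS replicate 2, and the next was 127.6. Nr1d2 rose by 3.00 ± 0.520 (8.00-fold, adjusted p = 0.0397), and by 3.51 ± 0.214 (11.4-fold, adjusted p = 6.2e-07) without that library. Nr1d1 (chromosome 11, 98767932 to 98775377), which encodes REV-ERB alpha, was 110.1 to 173.0 in 6 ZT2 libraries, 304.6 in the other and 205.9 to 570.4 at ZT14. It was not called in 13 libraries (1.20 ± 0.229, adjusted p = 0.0754) and rose by 1.33 ± 0.207 (adjusted p = 0.0084) in 12. The activators did not pass: Rora had medians of 504.7 at ZT2 and 386.5 at ZT14 (-0.47 ± 0.150, adjusted p = 0.293), and Rorb 71.7 and 57.6 (-0.37 ± 0.326, adjusted p = 0.849). In 12 libraries they were at -0.52 ± 0.150 and -0.19 ± 0.295. Of the 4 tested receptor genes, 1 was called higher in 13 libraries and 2 in 12, against 0.0519% and 0.336% of all genes.

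Among the output factors, Tef (chromosome 15, 81802673 to 81826863) was 132.8, 214.9 and 426.6 at ZT2 and 471.6, 591.8 and 659.4 at ZT14. The groups did not overlap, with PBS ZT2 replicate 2 the highest at ZT2. Tef rose by 1.44 ± 0.222 (2.72-fold, adjusted p = 0.0362), and by 1.60 ± 0.176 (adjusted p = 0.000628) without that library. Dbp, a textbook E-box target, was low throughout, at 28.1, 59.5 and 75.9 at ZT2 and 52.6, 72.4 and 199.6 at ZT14, with 3 of the 6 ZT14 libraries within the ZT2 range. Its difference was 0.90 ± 0.253 (adjusted p = 0.222), and 0.93 ± 0.266 (adjusted p = 0.141) in 12. Hlf (0.53 ± 0.240, adjusted p = 0.545) and Nfil3 (-0.05 ± 0.232, adjusted p = 0.987) did not pass, nor in 12 libraries (0.57, adjusted p = 0.424, and 0.09, adjusted p = 0.915). Nfil3 was highest, at 273.8, in PBS ZT2 replicate 2. Tef, 1 of the 4 output factors, was called higher in both fits, against 0.0519% and 0.336% of all genes.

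The positive arm ran the other way. Arntl (chromosome 7, 113178471 to 113314126) was 291.2, 832.2 and 1211 at ZT2 and 223.1, 287.4 and 422.5 at ZT14. Only PBS ZT2 replicate 2, at 291.2, lay within the ZT14 range, and the next ZT2 library was at 616.4. Arntl was not called in 13 libraries (-1.35 ± 0.286, adjusted p = 0.106), and fell by 1.57 on the log2 scale (± 0.206, 2.96-fold lower at ZT14, adjusted p = 0.00294) without it. Clock, the partner of BMAL1, had medians of 412.5 and 498.2 (-0.10 ± 0.227, adjusted p = 0.964, and -0.01 ± 0.226 in 12). Npas2, its paralogue, was near the detection limit, at 7.42 to 28.7 at ZT2 and 0 to 8.78 at ZT14 (-1.81 ± 0.590, adjusted p = 0.309, and -1.88 ± 0.628 in 12). Of the kinases and ligases that mark clock proteins for decay, 0 of 10 were called in either fit. Of all genes, 0.0519% were called higher and 0.0297% lower in 13 libraries, and 0.336% and 0.44% in 12. The lowest p of the 10 was that of Fbxl21, with medians of 554.5 and 373.7 (-0.58 ± 0.177, adjusted p = 0.273, and -0.61 ± 0.186 in 12).

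**Figure D2:**
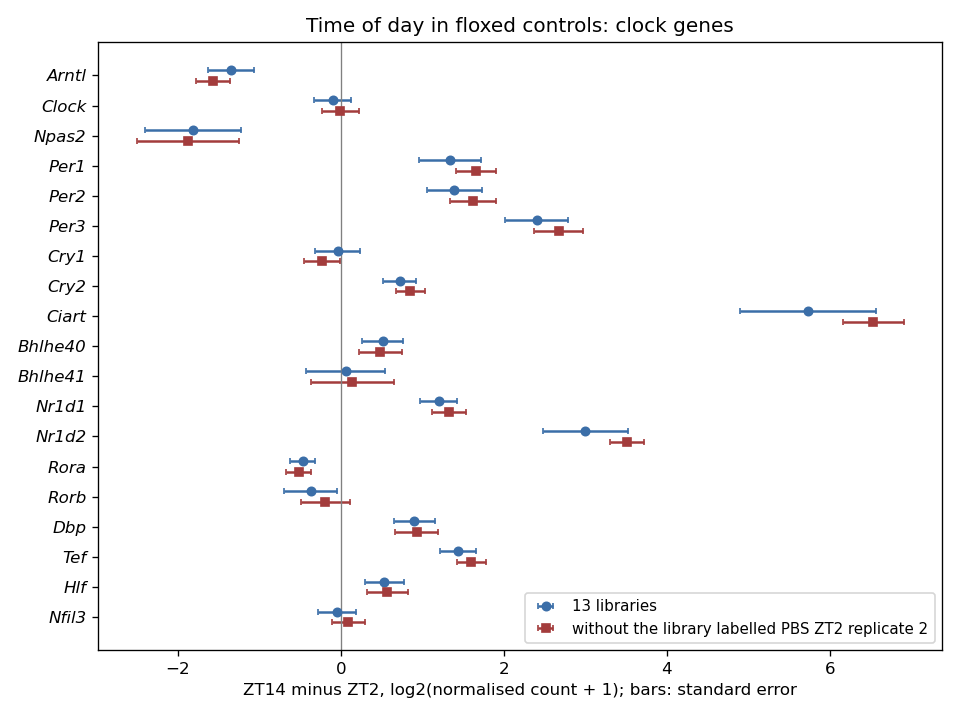
ZT14 minus ZT2 on log2(normalised count + 1) (x) for 19 clock genes (y), in 13 libraries and without the library labelled PBS ZT2 replicate 2; bars are standard errors. Ciart reads 5.73 and 6.53, Nr1d2 3.00 and 3.51, and Arntl -1.35 and -1.57, while Clock, Cry1, Bhlhe41 and Nfil3 lie within 0.25 of 0 in both.

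Outside the clock loop 7 genes were called in 13 libraries. Higher at ZT14 was Pcsk4 (chromosome 10, 80321283 to 80329748), a proprotein convertase known from testis, at 87.4, 108.3 and 173.0 at ZT2 and 192.3, 312.4 and 362.0 at ZT14. The groups did not overlap (1.32 ± 0.209, adjusted p = 0.0362, and 1.38 ± 0.211 in 12 libraries). Olfml3 (chromosome 3, 103735394 to 103738001), a secreted olfactomedin-like glycoprotein, was 134.4, 160.5 and 239.3 at ZT2 and 293.6, 346.9 and 442.9 at ZT14, again without overlap (1.04 ± 0.177, adjusted p = 0.0389, and 1.12 ± 0.167 in 12). Arhgef3 (chromosome 14, 27114461 to 27403916), a guanine nucleotide exchange factor, had medians of 830.0 and 2089 (1.11 ± 0.190, adjusted p = 0.0389, and 1.17 ± 0.193 in 12). Its groups touched, since PBS ZT2 replicate 4 was at 1369 and leptin ZT14 replicate 1 at 1313.

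Lower at ZT14 was Ptpre (chromosome 7, 135537824 to 135686294), a tyrosine phosphatase known to damp insulin and leptin receptor signalling, at 198.9, 360.5 and 633.5 at ZT2 and 75.5, 110.7 and 165.1 at ZT14. It fell by 1.61 on the log2 scale (± 0.262, 3.05-fold lower, adjusted p = 0.0362), with -1.73 ± 0.253 in 12, and the groups did not overlap. Ppef1 (chromosome X, 160622419 to 160751290), an EF-hand protein phosphatase, was 203.6, 272.6 and 437.4 against 69.0, 103.2 and 161.4 (-1.38 ± 0.237, adjusted p = 0.0389, and -1.32 ± 0.245 in 12). The stearoyl-CoA desaturase gene Scd3 (chromosome 19, 44203288 to 44244016) was 77.5, 102.6 and 143.9 against 30.7, 35.7 and 52.9 (-1.33 ± 0.228, adjusted p = 0.0389, and -1.33 ± 0.242 in 12). For both, every ZT14 library lay below every ZT2 library. Scd3 shares sequence with other desaturase genes, so that reads could be split between copies.

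Stac (chromosome 9, 111561437 to 111690588), an adaptor that binds voltage-gated calcium channels, fell below the mean level set for naming genes and is named because it was called, after its values were seen. It was 33.8, 49.3 and 178.8 at ZT2 and 0, 7.46 and 33.2 at ZT14 (-3.81 ± 0.616, adjusted p = 0.0362, and -3.82 ± 0.660 in 12). Among the ZT14 libraries, the 3 after PBS were at 0, 2.44 and 0 and the 3 after leptin at 33.2, 14.5 and 12.5. All 7 genes kept their direction and call without PBS ZT2 replicate 2, with adjusted p from 0.0061 to 0.0222. Counting genes whose groups did not overlap, 31 were higher (0.23% of those tested) and 27 lower (0.2%) in 13 libraries, and 103 (0.768%) and 98 (0.731%) in 12.

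**Figure D3:**
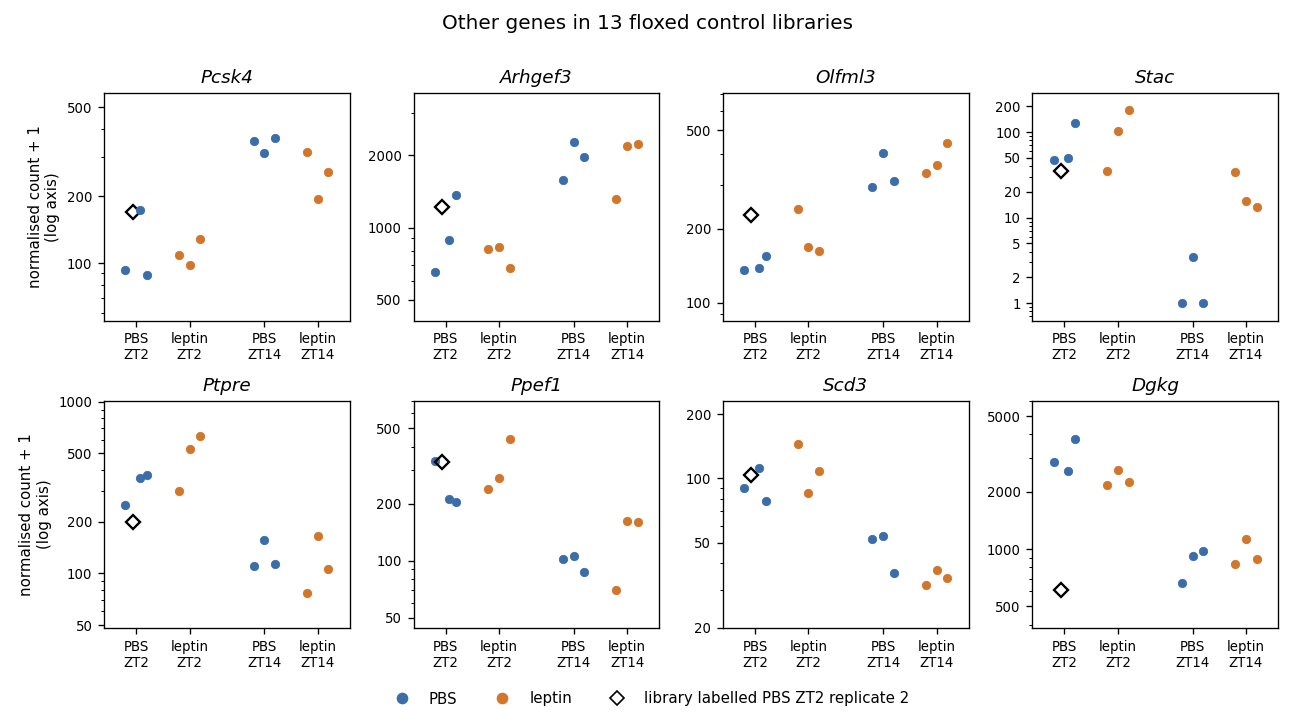
Normalised count + 1 (log axis, y) of 8 genes outside the clock loop in each floxed control library, by treatment and time (x); the open diamond is the library labelled PBS ZT2 replicate 2. The diamond lies with the other ZT2 libraries for Stac and Ppef1 and with ZT14 for Dgkg, at 611.2 against 665.3 to 1125 at ZT14 and 2179 to 3766 in the other 6 ZT2 libraries.

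Without the library that stands apart, 104 genes were called, and those below were not among the first 11. Dgkg, a diacylglycerol kinase, was 2179, 2585 and 3766 in the remaining ZT2 libraries and 665.3, 899.7 and 1125 at ZT14. It fell by 1.58 on the log2 scale (± 0.160, 3.00-fold lower, adjusted p = 0.000305), with -1.29 ± 0.314 (adjusted p = 0.159) in 13 libraries. Osbpl3, an oxysterol-binding protein gene, was 288.4, 471.5 and 525.8 against 109.9, 124.8 and 141.9 (-1.75 ± 0.180, adjusted p = 0.000305). The kinase gene Lrrk1 was 156.0, 220.8 and 436.0 against 24.1, 43.0 and 68.2 (-2.43 ± 0.304, adjusted p = 0.00181). In none of these 3 did the groups overlap, and PBS ZT2 replicate 2 was at ZT14 level in each (611.2, 114.9 and 24.6).

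Further genes called lower in the 12 libraries were the ETS repressor Elk3 (-2.13 ± 0.353), the cytoskeletal gene Rai14 (-2.33 ± 0.456), Spsb4 (-2.12 ± 0.322), the interferon-inducible chaperone gene Rtp4 (-1.81 ± 0.264), the metalloprotease gene Adam12 (-1.62 ± 0.318), the growth factor gene Pdgfd (-1.62 ± 0.327) and the ubiquitin ligase gene Fbxo32 (-1.61 ± 0.337). Their adjusted p ranged from 0.0061 (Rtp4) to 0.0397 (Fbxo32), and in 13 libraries none of the 7 was called. Among genes called higher, Wee1, which encodes a kinase that restrains mitosis and is a known clock output, was 149.0, 253.5 and 343.8 against 454.0, 626.5 and 889.8 (1.37 ± 0.223, adjusted p = 0.0114; 0.0757 in 13). The P450 gene Cyp4v3 was 91.3, 227.3 and 319.0 against 529.6, 557.1 and 706.0 (1.49 ± 0.224, adjusted p = 0.00688; 0.201 in 13). Nmbr, the neuromedin B receptor gene, rose by 2.08 ± 0.411 (adjusted p = 0.0275) and the retinal transporter gene Abca4 by 2.02 ± 0.362 (adjusted p = 0.0197), and each of the 6 ZT14 libraries exceeded the remaining 6 ZT2 libraries. In the library that stands apart, Cyp4v3 was at 743.5, Nmbr at 260.5 and Abca4 at 130.2.

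Time of day was then fitted within each treatment. After PBS 1 gene was called in 13 libraries (0.00742% of those tested), Stac at -5.24 ± 0.678 (adjusted p = 0.0228; 657 genes at an unadjusted p under 0.05, and 0 called by edgeR and 28 by DESeq2). Without PBS ZT2 replicate 2, 6 were called (0.0448%): Ciart 7.26 ± 0.474, Nr1d2 3.61 ± 0.314, Per3 3.32 ± 0.375, Dgkg -1.85 ± 0.214, Osbpl3 -1.93 ± 0.258 and Stac -5.48 ± 0.730. After leptin 0 genes were called in 13 libraries (0%; 636 at an unadjusted p under 0.05, and 0 by edgeR and 30 by DESeq2). In 12 libraries 3 were called (0.0224%), namely Ciart 5.79 ± 0.474, Nr1d2 3.40 ± 0.314 and Setdb2, a gene of the histone methyltransferase family.

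The difference between these 2 time effects was tested directly, and 0 genes passed in either fit (0%; 227 and 198 at an unadjusted p under 0.05, and 0 by edgeR and DESeq2 in 13 libraries). For Ciart leptin minus PBS was 0.12 ± 1.74 in 13 libraries and -1.47 ± 0.670 in 12, for Per3 -0.68 ± 0.788 and -1.28 ± 0.530, and for Stac 3.07 ± 0.993 and 3.31 ± 1.03, each at adjusted p = 1. Nr1d2 (0.75 ± 1.07 and -0.22 ± 0.445) and Tef (0.29 ± 0.456 and 0.00 ± 0.370) did not pass either, and with standard errors of this size smaller differences were not detectable.

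Outside the clock lists, 0 of the members of the 33 other lists were called in 13 libraries, against 0.0519% of all genes called higher and 0.0297% lower. Over all genes the median difference was -0.023, and -0.021 in 12 libraries. No list was tested as a set. Glucocorticoid response genes, which follow the daily corticosterone rise of nocturnal rodents before dark, were positive in 16 of 17 (median 0.387, and 0.444 in 12 libraries). Per1, which is also on that list, was called in 12 libraries. Fkbp5, a co-chaperone gene of the glucocorticoid receptor, had medians of 114.9 and 271.9 (0.86 ± 0.303, adjusted p = 0.344, and 1.05 ± 0.263, adjusted p = 0.0858 in 12), and Fam107a, a glucocorticoid-induced gene, was 858.6, 1041 and 1200 against 1164, 1581 and 1961 (0.57 ± 0.133, adjusted p = 0.153, and 0.58 ± 0.140 in 12). Immediate early genes, which follow neuronal activity, were positive in 11 of 16 (median 0.488, and 0.593 in 12). Of these Egr4 was 3.30 to 15.4 in 6 ZT2 libraries, 22.6 in PBS replicate 2 and 19.5 to 48.3 at ZT14 (1.99 ± 0.448, adjusted p = 0.144, and 2.22 ± 0.419, adjusted p = 0.0232 in 12), and Arc had medians of 112.1 and 396.3 (1.30 ± 0.480, adjusted p = 0.381, and 0.275 in 12).

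Sterol and fatty acid synthesis genes were positive in 19 of 22 (median 0.228), and in 17 of 22 (median 0.205) in 12 libraries. Elovl6, a fatty acid elongase, was 336.4, 489.1 and 661.0 against 644.9, 715.1 and 867.3 (0.63 ± 0.162, adjusted p = 0.175, and 0.67 ± 0.167 in 12). Genes for folding and stress in the endoplasmic reticulum were negative in 19 of 23 (median -0.23), and in 20 of 23 (median -0.244) in 12 libraries. Hspa5, the chaperone BiP, was 19270, 29740 and 46000 against 15460, 21210 and 33520, with overlapping groups (-0.46 ± 0.223, adjusted p = 0.591, and -0.54 ± 0.226 in 12). Interferon response genes were negative in 14 of 16 (median -0.219). Their median was -0.431 without PBS ZT2 replicate 2, with 12 of 15 tested members negative. Oasl2 was at -0.44 ± 0.238 (adjusted p = 0.65), and at -0.55 ± 0.228 in 12 libraries.

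Receptors and channels gave few calls. Npy1r, the Y1 receptor of NPY, was 84.1 to 136.3 in 6 ZT2 libraries, 251.3 in PBS replicate 2 and 175.8 to 381.1 at ZT14. It rose by 1.19 ± 0.205 (2.27-fold, adjusted p = 0.0155) in 12 libraries and was not called in 13 (0.99 ± 0.265, adjusted p = 0.188). In 12 libraries it was the 1 called of 22 tested feeding hormone and peptide receptor genes, against 0.336% of all genes called higher. That list does not hold Nmbr, called above. Npy2r, the Y2 receptor gene, had medians of 4358 and 5465 (0.41 ± 0.113, adjusted p = 0.201, and 0.40 ± 0.120 in 12). Of 22 genes of leptin and JAK-STAT signalling, 16 were negative (median -0.085), and 18 (median -0.135) in 12 libraries. Cish, a feedback inhibitor of the SOCS family, was 168.2, 487.9 and 1114 against 129.4, 234.9 and 452.5 (-1.01 ± 0.266, adjusted p = 0.183), and fell by 1.18 on the log2 scale (± 0.231, adjusted p = 0.0272) in 12. Socs3 overlapped widely (181.8 and 130.8 by median, adjusted p = 0.723). In autophagy, Wipi1 was 110.8, 194.6 and 384.4 against 51.2, 94.4 and 138.8 (-1.20 ± 0.238, adjusted p = 0.0816, and -1.23 ± 0.250, adjusted p = 0.0325 in 12). In 12 libraries it was the 1 called of 23 autophagy and lysosome genes, against 0.44% of all genes called lower.

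Potassium channels (28 tested, median -0.129), calcium, sodium, HCN and TRP channels (25, -0.060), GABA receptors (15, 0.020), glutamate receptors (18, -0.291), vesicle release genes (31, -0.116), AMPK and NAD genes (15, 0.071), insulin, FoxO and mTOR genes (23, -0.010), glycolysis (20, -0.078), fatty acid oxidation (17, -0.047), oxidative phosphorylation (30, 0.039), mitochondrial dynamics (9, 0.027), proteasome (26, -0.011), cytosolic ribosomal proteins (48, 0.021) and temperature-driven RNAs (17, 0.037) had no listed member called in either fit. Their medians in 12 libraries lay between -0.262 (glutamate receptors) and 0.072 (oxidative phosphorylation). Potassium channel genes outside that list were called lower in 12 libraries: Kcnj8, described with the mural markers, and Kcnc4 (-1.39 ± 0.299, adjusted p = 0.0458), which is named after its values were seen. The nearest to a call among the listed members in 12 libraries were the cation channel gene Trpc4 (0.95 ± 0.216, adjusted p = 0.0617) and the GABA receptor gene Gabrb1 (0.56 ± 0.128, adjusted p = 0.0624). Gabrb1 was 1608 to 2130 in 6 ZT2 libraries, 3242 in PBS replicate 2 and 2208 to 3546 at ZT14.

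**Figure D4:**
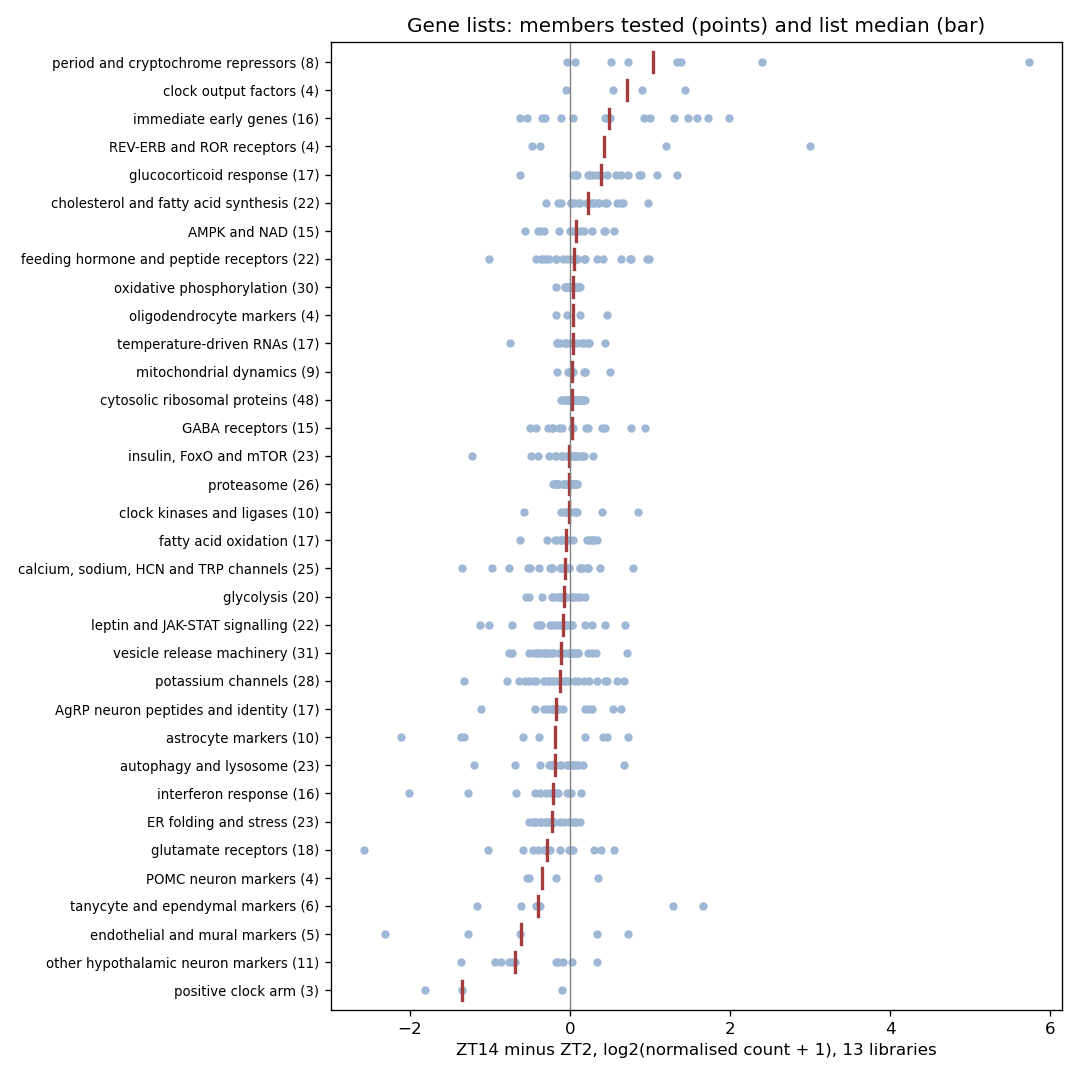
ZT14 minus ZT2 on log2(normalised count + 1) in 13 libraries (x) for the tested members (points) and the median (bar) of each gene list with at least 3 tested members (y, number tested in brackets). The period and cryptochrome repressors have a median of 1.033 and the positive clock arm -1.346, against 0.039 for oxidative phosphorylation and 0.021 for ribosomal proteins.

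The libraries held the peptides that define AgRP neurons at all times. Agrp was 82520, 106500 and 144200 at ZT2 and 67530, 85690 and 130000 at ZT14 (-0.17 ± 0.187, adjusted p = 0.888, and -0.10 ± 0.185 in 12), and Npy 267800, 343000 and 530500 against 250800, 328200 and 417000 (-0.14 ± 0.186, adjusted p = 0.92, and -0.04 ± 0.171 in 12). Both were highest in PBS ZT2 replicate 2, as was Lepr, the leptin receptor gene (2733 there, 700.5 to 1209 in the other ZT2 libraries and 730.9 to 1521 at ZT14). Of 17 AgRP neuron genes tested 0 were called in either fit, against 0.336% of all genes called higher and 0.44% lower in 12 libraries. The protease gene Corin was nearest, with medians of 728.2 and 1143 (0.54 ± 0.177, adjusted p = 0.309, and 0.64 ± 0.158, adjusted p = 0.0793 in 12), while the transcription factor gene Bsx had medians of 180.7 and 108.1 (-1.11 ± 0.440, adjusted p = 0.446, and -1.31 ± 0.420 in 12).

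Of the markers of other cell types, 0 were called in 13 libraries and 2, Sox9 and Kcnj8, were called lower in 12, where 0.44% of all genes were. The part of these cells in the results was not tested. Other hypothalamic neuron markers had a median difference of -0.692 (9 of 11 tested negative) in 13 libraries and -0.73 in 12, endothelial and mural markers -0.619 and -0.883 (5 tested), tanycyte and ependymal markers -0.398 and -0.488 (6 tested), POMC neuron markers -0.345 and -0.368 (4 tested), astrocyte markers -0.185 and -0.408 (10 and 9 tested), and oligodendrocyte markers 0.039 and 0.006 (4 tested). The summed level of 19 markers of other hypothalamic neurons was 14010 to 40780 at ZT2 and 7973 to 24180 at ZT14, led by Sst (somatostatin, medians 16380 and 8781, -0.76 ± 0.319, adjusted p = 0.473, and -0.91 ± 0.308 in 12), and Tac2 was 0 in all 13. The 6 POMC neuron markers summed to 4487 to 7871 and 3154 to 7060, with Pomc at 412.2 to 2177 and 249.1 to 902.5 (-0.51 ± 0.278, and -0.51 ± 0.297 in 12). Astrocyte markers summed to 3097 to 4200 and 3496 to 4379, most of it Aldoc, which neurons also hold. Gja1, an astrocyte marker, was 272.8 in PBS ZT2 replicate 2, with a median of 13.6 over ZT2. Sox9, a glial factor, fell by 1.62 on the log2 scale (± 0.350, adjusted p = 0.0467) in 12 libraries and was not called in 13 (-1.36 ± 0.410, adjusted p = 0.264). Aldh1l1, another astrocyte marker, went the other way, with medians of 135.7 and 281.8 (0.72 ± 0.357, adjusted p = 0.608, and 0.65 ± 0.375 in 12). Of the tested astrocyte markers 5 were positive and 5 negative in 13 libraries, and 4 and 5 in 12.

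Endothelial and mural markers summed to 150.8 to 261.5 at ZT2 and 73.8 to 294.1 at ZT14. Of these Cldn5, which defines endothelium, was 0 to 2.05, and Kcnj8, a potassium channel subunit gene, was 75.7 to 140.3 in 6 ZT2 libraries, 27.7 in PBS replicate 2 and 7.28 to 35.4 at ZT14 (-2.31 ± 0.430, adjusted p = 0.0712; -2.55 ± 0.386, adjusted p = 0.0071 in 12). Tanycyte and ependymal markers summed to 1368 to 1823 and 1113 to 1692, oligodendrocyte markers to 1205 to 1674 and 965.5 to 1861 (Mog and Cldn11 at 0), their precursors to 0 to 9.85 and 0 to 1.63 (C1ql1 and Sox10 at 0), microglia to 469.3 to 753.8 and 508.9 to 792.8 (C1qa and C1qc at 0), and erythroid markers to 15.4 to 38.5 and 8.78 to 35.4 (4 haemoglobin genes at 0). The 45S ribosomal RNA precursor Rn45s was 147100 to 380400 and 61100 to 419700 (-0.72 ± 0.393, adjusted p = 0.654, and -0.69 ± 0.420 in 12). In bulk RNA, fewer cells of a type and less RNA per cell cannot be told apart.

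The same contrast in the AGRP-Cre;BMAL1fx libraries was set beside that of the controls. Arntl, the targeted gene, was 245.5, 335.2 and 526.3 at ZT2 in these 12 libraries and 107.8, 226.9 and 394.5 at ZT14, so that its RNA was detected in all of them. At ZT14 it overlapped the control range. At ZT2 it lay below the control libraries (616.4 to 1211), except PBS ZT2 replicate 2 (291.2), which was within the knockout range. Levels at either time were not tested between genotypes. Which exons are floxed is not given, and gene-level counts may lie outside the deleted part. With time, 0 genes were called in knockouts (0%; 1309 at an unadjusted p under 0.05, 0 by edgeR and 26 by DESeq2). Ciart was 2.78, 5.92 and 18.5 at ZT2 and 7.02, 42.5 and 104.7 at ZT14 there (2.17 ± 0.813, adjusted p = 0.42), and Nr1d2 27.3, 41.2 and 62.9 against 39.4, 94.8 and 165.7 (1.05 ± 0.476, adjusted p = 0.513). No knockout library at ZT14 reached the lowest control library at ZT14 in either gene.

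The difference between both time effects, controls minus knockouts, was tested in 1 fit of 25 libraries, and 0 genes passed (0%; 689 at an unadjusted p under 0.05, 0 by edgeR and 1 by DESeq2). Without PBS ZT2 replicate 2, 1 gene passed (0.0072%): Nr1d2, at 2.46 ± 0.399 (adjusted p = 0.0294), against 1.95 ± 0.662 (adjusted p = 0.737) with it. Ciart was at 4.35 ± 0.772 (adjusted p = 0.0533) and Tef at 1.94 ± 0.380 (adjusted p = 0.106) without that library, and at 3.55 ± 1.13 and 1.78 ± 0.402 with it. Ptpre (-0.21 ± 0.470), Ppef1 (0.05 ± 0.652), Arhgef3 (0.24 ± 0.352) and Olfml3 (0.19 ± 0.311) were not called as different between genotypes. In knockouts alone their time differences were -1.40 ± 0.338, -1.43 ± 0.469, 0.86 ± 0.253 and 0.84 ± 0.223, none called. For Scd3 controls and knockouts differed by -1.45 ± 0.295 (adjusted p = 0.631), with a knockout difference of 0.11 ± 0.212.

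Against ad libitum fed NPY-GFP cells, 1 gene passed in 13 libraries (0.00713%), Nr1d1. In those cells Nr1d1 was 593.0, 1016 and 1269 at ZT2 and 364.9, 422.4 and 431.4 at ZT14, so that the time difference was -1.22 ± 0.277 there and the floxed minus NPY-GFP difference 2.42 ± 0.352 (adjusted p = 0.0052). This call was lost without NPY-GFP ad libitum ZT14 replicate 3. Without PBS ZT2 replicate 2, 6 genes passed (0.0429%), all of them clock genes: Nr1d2 3.83 ± 0.314, Ciart 5.46 ± 0.538, Nr1d1 2.55 ± 0.327, Per3 3.20 ± 0.452, Tef 1.85 ± 0.275 and Dbp 2.37 ± 0.439. In NPY-GFP cells Nr1d2 was already 730.7 to 1449 at ZT2 and was 741.8 to 901.2 at ZT14, and Per3 was 722.5 to 1791 and 586.6 to 801.1. Thus the floxed ZT2 libraries were below all NPY-GFP ZT2 libraries in both genes, except PBS ZT2 replicate 2 in Nr1d2 (1208). In Per3 that library (274.8) and all floxed ZT14 libraries (267.2 to 673.5) were below them as well.

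Per2 and Cry1 showed another order. In NPY-GFP cells Per2 was 30.3, 57.4 and 141.7 at ZT2 and 205.2, 317.0 and 366.4 at ZT14 (2.21 ± 0.445, adjusted p = 0.122), and Cry1 was 21.6, 44.7 and 72.2 against 118.4, 156.5 and 274.6 (2.03 ± 0.401, adjusted p = 0.122). The groups did not overlap in either gene, though neither was called. The share of all genes without overlap was not counted in these cells, where ZT14 had only 3 libraries. The floxed minus NPY-GFP difference was -0.82 ± 0.567 for Per2 (adjusted p = 0.887) and -2.08 ± 0.511 for Cry1 (adjusted p = 0.435; 0.0891 in 12). Collection, feeding state and cell isolation differ or may differ between these sets, and their parts cannot be told apart.

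**Figure D5:**
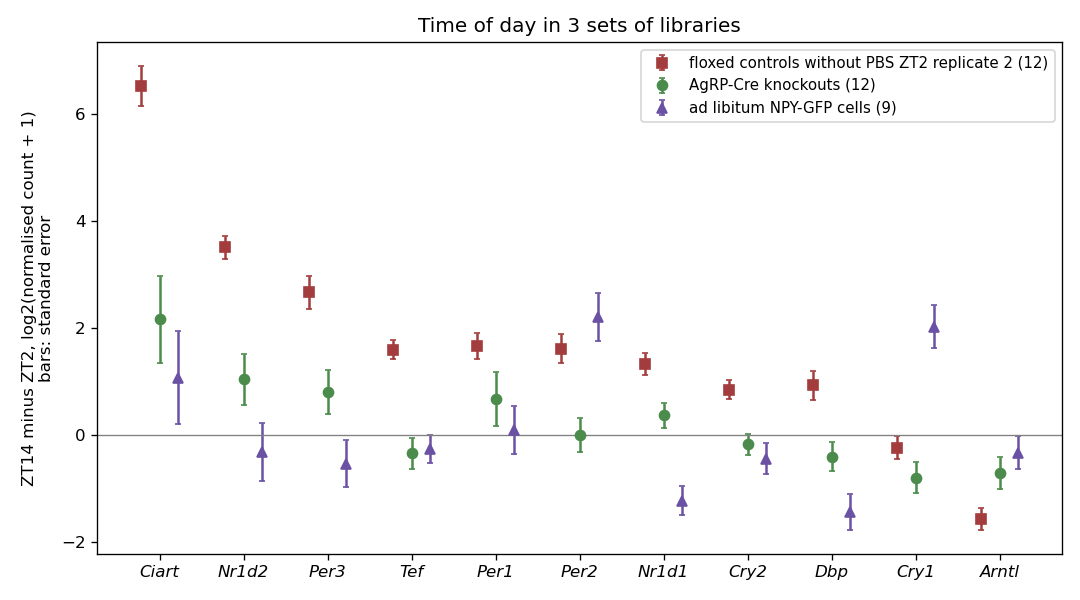
ZT14 minus ZT2 on log2(normalised count + 1) (y) for 11 clock genes (x) in floxed controls without the library labelled PBS ZT2 replicate 2 (12 libraries), AGRP-Cre;BMAL1fx knockouts (12) and ad libitum fed NPY-GFP cells (9); bars are standard errors. Nr1d2 reads 3.51, 1.05 and -0.32, and Nr1d1 1.33, 0.37 and -1.22 in that order.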

How the data were processed

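A single deposited table holds 23337 genes in 80 libraries. Its unit is a signal, the authors' normalised counts: each library's gene counts were scaled by that library's size factor. Per the labels' protocols, amplification used SMART-seq v4 and library preparation Nextera XT. The tools named in the submitters' processing notes are R 3.5.1, DESeq2, DESeq, Subread with featureCounts, and STAR 2.5.1, and the build is mm10; annotation, read length and strand setting are not given in the sources used here, so reads of overlapping or antisense genes cannot be told apart. In the 13 floxed libraries 100% of values were whole multiples of 1 step (tolerance 0.1), which gave the reads per library.

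Groups were taken from the labels. limma 3.58.1 (limma-trend, R 4.3.3) was fitted on log2(value + 1) for genes that reached 10 in 3 or more libraries, with 4 groups in the fits within treatment. Benjamini-Hochberg adjustment covered every gene in a fit (threshold 0.05). The fits with knockouts held 25 libraries and those with NPY-GFP cells 22. edgeR 4.0.16 (quasi-likelihood, TMM) and DESeq2 1.42.0 were run on the recovered reads as alternatives, without the 1 NPY-GFP library whose values were not whole, as were other pseudocounts and filters, library weights, TMM scaling and each library left out. The fits were tested on simulated data.

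The members and the 37 gene lists were chosen with earlier results of these data known. Named genes were the clock genes, up to 15 per direction with the largest differences among called genes of mean log2 value of at least 5 and an assigned symbol, Agrp, Npy, Lepr, Socs3, Pomc and Rn45s, and up to 4 called or 2 uncalled members of each list, or up to 5 called genes in each test of a difference; the same rule was applied to the calls without PBS ZT2 replicate 2. Fkbp5 was named in addition after its values were seen.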

Additional observations from a re-analysis of the deposited data

Results flagged for a closer look

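Within the 7 ZT2 and the 6 ZT14 libraries, 118 named genes were searched for a library far from the others of its time (236 groups of values, of which chance flags about 1 in 20), and 16 values stood out, 12 of them in the library labelled PBS ZT2 replicate 2. Of these genes 22 were named only through fits that leave that library out, which favours genes in which it deviates, so that the rate of chance does not apply to them; they gave 6 of the values, 5 in that library. The other 96 genes gave 10 values, 7 in that library. It was high in Per1 (591.7, others 96.8 to 126.1), Ciart (364.1, others 1.65 to 15.2), Nr1d2 (1208, others 61.5 to 127.6), Lepr (2733, others 700.5 to 1209), the ketone enzyme gene Oxct1 (3275, others 2259 to 2637), Gabrb1 (3242, others 1608 to 2130) and Insl6 (157.9, others 20.3 to 43.1). It was low in Kcnj8 (27.7, others 75.7 to 140.3), Lrrk1 (24.6, others 156.0 to 436.0), Osbpl3 (114.9, others 288.4 to 525.8), Adam12 (13.3, others 51.7 to 137.8) and Dgkg (611.2, others 2179 to 3766).

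The other 4 values were Hspb1 at 97.3 in PBS ZT2 replicate 3 (others 176.9 to 227.7), Ndufv1 at 6465 in leptin ZT2 replicate 3 (others 4294 to 5099), St18 at 59.1 in leptin ZT2 replicate 1 (others 136.7 to 183.6) and Cyp4v3 at 706.0 in leptin ZT14 replicate 3 (others 529.6 to 583.5).

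By limma's tests of a difference, the time effect of Nr1d1 differed from that in ad libitum NPY-GFP cells by 2.42 ± 0.352 (adjusted p = 0.0052). Without PBS ZT2 replicate 2 it differed by 2.55 for Nr1d1 (adjusted p = 0.000263), 3.83 for Nr1d2 (adjusted p = 1.7e-07), 1.85 for Tef (adjusted p = 0.00177), 5.46 for Ciart (adjusted p = 3.27e-06), 3.20 for Per3 (adjusted p = 0.00101) and 2.37 for Dbp (adjusted p = 0.0394), and between floxed controls and knockouts by 2.46 for Nr1d2 (adjusted p = 0.0294).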

How the results depend on the processing

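For time of day in floxed controls, 11 genes were called. There were 0 calls with no filter on low values or by edgeR, 209 with library weights and 192 by DESeq2, and 11 to 15 with the other pseudocounts, the stricter filter, TMM scaling, no leptin term, the 25-library fit or thinned reads. Leaving out 1 library gave 0 to 104. Without PBS ZT2 replicate 2 (104 called) there were 389 with library weights, 413 by DESeq2, 78 with thinned reads and 64 in the fit of both genotypes. Each further library left out gave 35 to 119. After PBS (1 called) there were 0 with a pseudocount of 10, no filter or edgeR, 3 with library weights, 28 by DESeq2 and 0 to 6 without 1 library. After leptin (0 called) there were 2 with no filter, 1562 with library weights, 30 by DESeq2 and 0 to 3 without 1 library. By leptin all alternatives gave 0. In knockouts (0 called) there were 1 with no filter, 34 with library weights, 26 by DESeq2 and 0 to 29 without 1 library. By genotype (0 called) DESeq2 gave 1, and leaving out 1 library 0 to 1. Against NPY-GFP cells (1 called) there were 14 with library weights, 8 by DESeq2 and 0 to 6 without 1 library. The cause of these shifts was not tested. The 11 called genes kept their sign in 25 of 25 alternatives, and each was called in 9 (Ppef1) to 13 (Tef) of them. With the collection number as a replicate block, 3 genes were called in 13 libraries (Ciart, Tef and Arhgef3, with 0 lower), 340 without PBS ZT2 replicate 2 and 0 after PBS. Of 18 same-numbered pairs of libraries, 13 had deviations correlated above 0.1 (range -0.308 to 0.439). The 3 pairs with PBS ZT2 replicate 2 were all negative, and of the other 15 pairs 13 were above 0.1 (lowest 0.023). With libraries numbered 1, PBS ZT2 replicate 2 was at 0.287 (leptin ZT14), 0.247 (PBS ZT14) and 0.267 (leptin ZT2). Of 13 libraries, 10 correlated best with their own number, a hint from the data that the numbers mark shared conditions. Since not every pair passed 0.1 and the labels name nothing shared, the fit without the block was kept. Depth limits weakly expressed genes such as Npas2, Stac and Egr4.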
